A study of Mus musculus with 20 samples.

Results

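The cytosolic ribosomal protein genes were described in hearts of mice of both sexes, fed either chow or a high-fat diet. Members were protein-coding genes whose symbol is Rpl or Rps followed by a number, with an optional a, l, p or x, together with Rplp0, Rplp1, Rplp2 and Rpsa. This gave 80 genes of 48969 with counts in the files: 46 of the large subunit, 31 of the small subunit and 3 of the stalk, on 19 chromosomes. Kinases named Rps6k and pseudogenes were excluded, and some ribosomal proteins, such as Fau and Rps3a1, fell outside the pattern by name only. An expression filter passed 78 members among 18051 genes, and Rpl10l and Rpl39l did not pass it.

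PolyA-selected RNA of whole hearts was sequenced from wild-type C57BL/6 mice aged 12 weeks, in 20 libraries. Chow-F were females on chow, Chow-M males on chow, PA-F females and PA-M males on the diet other than chow, read here as the high-fat diet because the series names only those diets. All groups shared genotype, strain, age and tissue, and the labels name no batch and do not state that each library is a separate animal, so p-values measure only the spread between these samples. Chow-M4 was deposited in another form and was left out, which left 5, 4, 5 and 5 libraries.

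A ribosome is built from a small subunit, which reads the messenger RNA, and a large subunit, which joins amino acids, and each carries its set of proteins in single copy beside ribosomal RNA. The stalk proteins Rplp1 and Rplp2 are the exception, present in several copies, and the stalk recruits the elongation factors. Messenger RNAs of these proteins typically begin with a C followed by pyrimidines at the cap (the 5′ terminal oligopyrimidine tract), through which mTOR signalling and LARP1 control their translation as a group. Heart and skeletal muscle also use a paralogue of the large subunit protein Rpl3, called Rpl3l. Transcript levels, which are what was measured here, say nothing of translation or of ribosome number.

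The start sites are shown to let a reader see the tract that these genes are known for. Each window holds 30 bases on the sense strand of the RefSeq promoter table (GRCm38.p6), 18 before the annotated start and 12 from it, and capitals mark the longest match that begins within 5 bases of the start, a C followed by at least 4 letters that are C or T.
Rps6, chr4:86857356-86857385, minus strand: gttaagcggaagtcgggCCTCTTTTTCgtg
Rpl15, chr14:18270975-18271004, minus strand: attgtgggagaaagCCTTCTTCCTTTCCTC
Rps27, chr3:90213637-90213666, minus strand: aggatttccgctttcgCTCCTTTCCggcgg
Rpl12, chr2:32961694-32961723, plus strand: gtgggcggagcaggatccgtCTTTTCggct
Rps2, chr17:24720045-24720074, plus strand: cgtaggcagtcgagatctcgcgCTTCTTgg
Rplp0, chr5:115559449-115559478, plus strand: gtcgtcttcgggtttcgaggaccgcctggt
Rpsa, chr9:120127748-120127777, plus strand: gctgtgggttatttaaggacgtcatttccg
Rpl3l, chr17:24727808-24727837, plus strand: gctgagtgttctagctctgtcatttgacct
The first 5 hold a match and the last 3 do not. The table held 60 of the 80 members, and 28 of them (46.7%) had a match at 1 start or more, against 5718 of 27025 genes (21.2%) in the whole table. On the other strand 8 of the 60 members (13.3%) and 24.4% of all genes had one. A match describes these letters only, and an annotated start a few bases off would hide a tract.

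Ribosomal protein genes are also known for their many processed pseudogenes, and this bears on how well their reads can be assigned. Of the 31-base stretches in the coding sequence of a member (GENCODE vM21), a median of 96.6% also occurred in an annotated transcript of another gene, and 73 of 80 members had more than 50% of their stretches shared. Rpl3l shared none of its 1194 stretches, Rpl8 11.0% and Rps3 18.9%, so these were among the tested members whose reads were least ambiguous. How the counting treated reads with several matches is not given in the sources used here. The 280 loci named as pseudogenes of ribosomal proteins, by a symbol ending in -ps, held little. Their counts came to 0.0813% to 0.0959% of the members' counts in 18 libraries and to 0.397% in Chow-F4. Loci with other names were not in this sum. Among these are Gm10288, the gene sharing most stretches with Rpl11, and Gm10240, the one sharing most with Rpl21.

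The summed counts of the 80 members made up 1.65% to 2.43% of the gene counts of a library. In chow females the shares were 1.87%, 1.95%, 2.14%, 2.15% and 2.21%, with a mean of 2.06% ± 0.144 (SD, n = 5). In chow males they were 1.77%, 1.80%, 1.83% and 1.92%, with a mean of 1.83% ± 0.0655 (SD, n = 4). The 2 groups overlapped only through Chow-F1, which lay below the highest male. In high-fat females PA-F1, PA-F2 and PA-F3 had 1.89%, 1.98% and 2.08%, whereas PA-F4 had 2.30% and PA-F5 2.43%, the highest of all 19 libraries. High-fat males had 1.65%, 1.70%, 1.77%, 1.83% and 1.87%, with a mean of 1.76% ± 0.0922 (SD, n = 5), and all lay below every high-fat female. Fewer cells of a type and less RNA per cell cannot be told apart in such bulk samples.

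**Figure D1:**
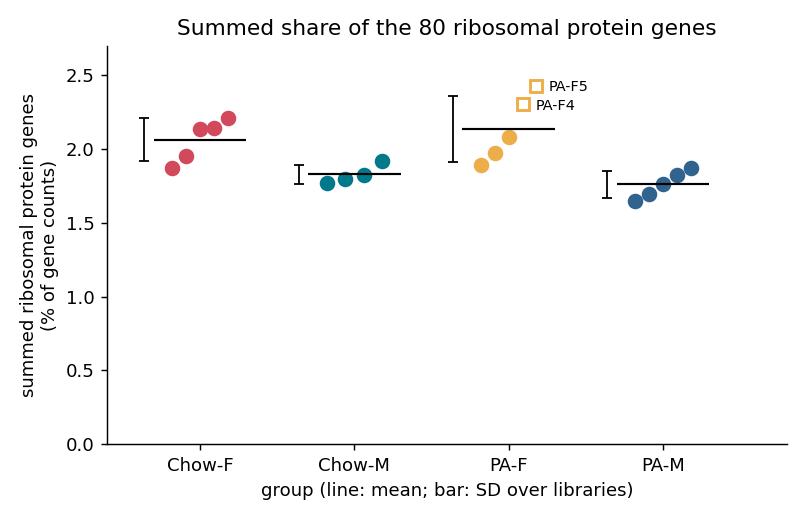
Summed counts of the 80 ribosomal protein genes as a percent of the gene counts of each library (vertical axis), by group. Points are libraries, lines are means, bars are SDs, and open squares mark PA-F4 (2.30%) and PA-F5 (2.43%), which lie above the other 17 libraries.

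PA-F4 and PA-F5 differed from the rest in ways that reach this gene group. Relative to the mean of the other 17 libraries, their gene levels rose with GC content, by 0.63 and 0.91 log2 units per 10 points, against -0.07 to 0.14 in those 17. They also fell with gene length, by 0.08 and 0.11 log2 units per doubling of length, and the nuclear RNA Malat1 stood at 117 and 63.8 CPM (the count scaled to the TMM-adjusted library size) against 1130 to 1531 CPM in the others. Set against PA-F1 to PA-F3, all 78 members were higher in both libraries, with medians of 0.28 in PA-F4 and 0.35 in PA-F5 on the log2 scale, while the median gene differed by -0.03 and -0.05. The smallest of these differences were those of Rpl23, 0.07 and 0.01, and among the largest were those of Rps14, 0.37 and 0.39. The part of GC content, length or RNA quality in the members' levels was not tested. Fitted differences that rest on high-fat females are therefore also given without this pair.

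**Figure D2:**
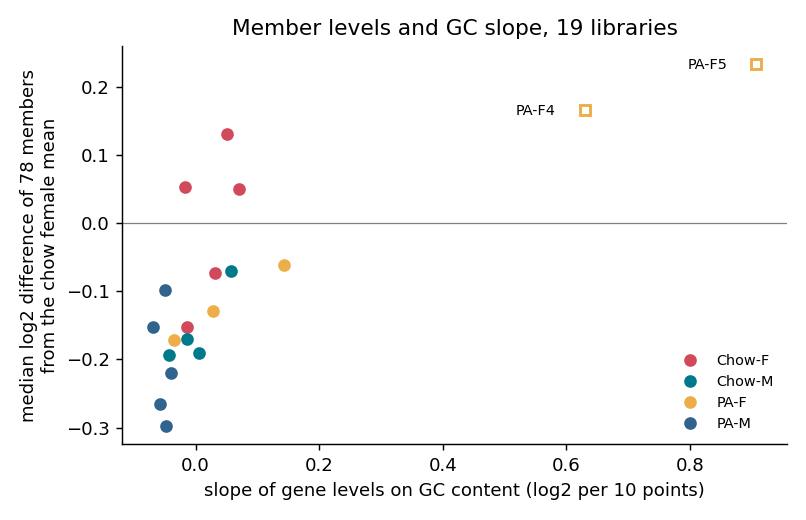
Median log2 difference of the 78 members from the chow female mean (vertical axis) against the slope of gene levels on GC content in log2 per 10 points (horizontal axis), for 19 libraries. PA-F4 and PA-F5 (open squares) lie apart on the horizontal axis, at 0.63 and 0.91, and are the highest on the vertical axis, at 0.17 and 0.23, where Chow-F5 follows at 0.13.

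Members rose and fell together from library to library, large and small subunit alike. After centring each group, the median Pearson correlation over the 3003 pairs of members was 0.81 over the 17 libraries other than PA-F4 and PA-F5. Of the 78 members, 68 had a correlation above 0.8 with the median of the others, a level reached by 0.79% of the 17973 other genes. These points share library depth and composition, so the 78 members amount to far fewer independent measurements, and no p is given. The closest to the common pattern was the large subunit protein Rpl26 (0.98). The lowest were Rpl3l at 0.13, then Rps27l at 0.54 and Rps29 at 0.64. Spread within groups was greatest for several of the shortest genes: the log2 SD was 0.17 for Rps29, 0.15 for Rps28 and 0.15 for Rpl39, against a median of 0.08.

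**Figure D3:**
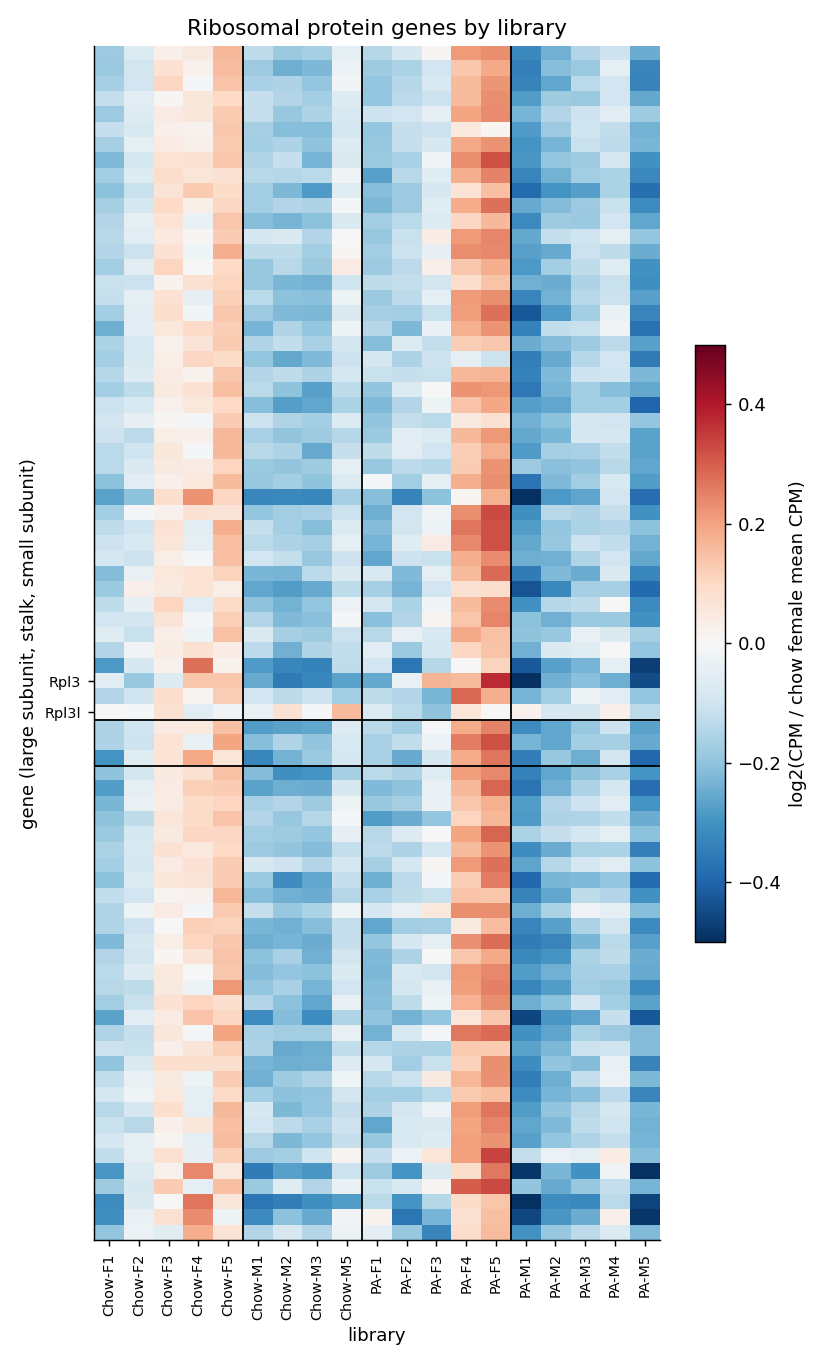
Log2 ratio of CPM to the chow female mean for each of the 78 tested members (rows, of which Rpl3 and Rpl3l are labelled, grouped as large subunit, stalk and small subunit and ordered by correlation with the other members) in 19 libraries (columns). Colour columns run the length of the gene group, for example the low PA-M1 and the high PA-F5, and Rpl3l, the last large subunit row, does not follow them.

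Levels per kb of exon differed widely between members, although annotated exon length, which counts retained introns, sets part of this order. Among the highest were the stalk proteins Rplp1 at 480.0 CPM per kb and Rplp0 at 423, both as means over 19 libraries. The lowest that passed the filter were Rps19 at 31.5, Rps15a at 37.6 and Rps20 at 44.98 CPM per kb, on annotated exon lengths of 4685, 6270 and 4012 bases against 499 for Rplp1. The levels of Rpl13a and Rpl24 are understated, since 90.4% and 91.0% of the counts over their exons lay on pieces shared with another annotated gene and were not used, as did 17.9% for Rpl19. Rpl10l, a testis-type copy of Rpl10, had no count in any of the 19 libraries, and Rpl39l, the corresponding copy of Rpl39, had at most 16 counts.

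The first question was how the sexes differed on chow. All members except Rpl3l were higher in females (77 of 78), by a median of 0.16 on the log2 scale (1.117-fold), against a median of 0.01 over all genes tested. None passed the test of edgeR at an adjusted p under 0.05, where 1.73% of all genes were called higher in females. An unadjusted p under 0.05 was found for 28 members, and for 3006 of all 18051 genes in either direction. DESeq2 also called none. The smallest p belonged to Rpl23 (0.19, adjusted p 0.117), Rps21 (0.32), Rpl36a (0.23), Rpl12 (0.22) and Rpl3 (0.30). The large subunit had a median of 0.15 and the small subunit 0.17. Each chow female lay above each chow male for 7 members (8.97%), among them Rpl3, Rpl12, Rpl17, Rps4x, Rps24 and Rps25, and for 5.65% of all genes. The chow libraries with the highest members, Chow-F3, Chow-F4 and Chow-F5, also had the lowest length slopes among the 17 libraries, -0.02 to -0.04 log2 units per doubling of length, and the part of this in the sex difference was not tested.

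PA-F4 and PA-F5 enter the chow comparison through the shared estimate of spread, and without them 20 members were called higher in females (25.6%), against 4.75% of all genes, with the median unchanged at 0.16. Among those with the smallest adjusted p in that fit were Rpl12 (log2 difference 0.22, SE 0.05, adjusted p 0.0116) and Rps20 (0.24, SE 0.06, adjusted p 0.0123). Others called included Rpl3, Rpl5, Rpl14, Rpl21, Rpl30 and Rpl36a of the large subunit, Rplp1 of the stalk, and Rps3, Rps4x, Rps6, Rps16, Rps21, Rps24, Rps25, Rps27 and Rps27a of the small subunit. Rpl5 forms a particle with 5S ribosomal RNA that restrains Mdm2. Rps27a is made as a fusion to ubiquitin. A fit on the chow libraries alone called 6 members, all higher in females, and 3.9% of all genes higher.

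Rpl12, which lies at the base of the stalk, gives the sex difference on chow in single libraries. It stood at 217, 222, 237, 242 and 251 CPM in chow females and at 202, 193, 196 and 210 CPM (209.9) in chow males. The groups did not touch, with means of 234.0 ± 14.1 (SD, n = 5) and 200.2 ± 7.47 CPM (SD, n = 4). Rps6, a small subunit protein and the best known substrate of the S6 kinases, was at 199, 210.4, 233, 229.6 and 238 CPM in chow females and at 196, 193, 191 and 204 CPM in chow males, so Chow-F1 lay within the male range. Rps4x, encoded on the X chromosome together with Rpl10, Rpl36a and Rpl39, was at 345, 354, 371, 356 and 408 CPM in females and at 333, 314, 321 and 339 CPM in males. Its log2 difference of 0.17 (SE 0.08, adjusted p 0.272) was close to the median of all members, and that of Rpl10 was 0.16. The X-linked members did not all lie near that median, since the difference of Rpl36a, given above, was larger. Rpl39 stood at 69.3, 74.4, 88.6 and 74.1 CPM in Chow-F2 to Chow-F5, against at most 67.1 CPM in chow males. Chow-F1 lay within the male range for Rpl39, whose fitted difference is not given here.

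On the high-fat diet 17 members were called higher in females (21.8%) and none lower, against 6.4% of all genes called higher. The median over the 78 members was 0.22 on the log2 scale (1.17-fold), where the median gene stood at 0.01, and again every member but Rpl3l was higher in females. Called in the large subunit were Rpl3, Rpl10a, Rpl12, Rpl26, Rpl27, Rpl31, Rpl36a and Rpl37. In the small subunit they included Rps2, Rps6, Rps14, Rps16, Rps20 and Rpsa, which is also known as the laminin receptor, and in the stalk they were Rplp0 and Rplp1. Rpl3 had the largest difference, 0.43 (SE 0.10, adjusted p 0.0112), and that of Rps2 was 0.30 (SE 0.08, adjusted p 0.03; 0.14 and adjusted p 0.185 without PA-F4 and PA-F5). Each high-fat female lay above each high-fat male for 4 members (5.13%), Rplp0, Rps2, Rps6 and Rps20, which is near the 4.8% of all genes.

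Without PA-F4 and PA-F5 the difference on the high-fat diet shrank to a median of 0.08, with 73 of 78 members higher in females, and Rpl3 alone passed the test (0.29, SE 0.09, adjusted p 0.04). That is 1.28% of members, below the 4.8% of all genes called higher in that fit. Groups did not overlap for the same number of members, 4, where 8.79% of all genes did so. The count of 17 also fell to 1 when PA-F4, PA-F5, PA-M1 or PA-M5 alone was left out, where 3.7%, 4.19%, 4.78% and 4.41% of all genes were called higher. It rose to 56 without PA-F1, against 10.9% of all genes, and to 38 without PA-F2, against 6.86%. Fitted on the high-fat libraries alone, no member passed and 2.1% of all genes did, and a correction for GC content per library left 6 members and 3.58% of all genes.

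Values of single libraries follow for 2 of these members. Rplp0, the stalk protein that anchors Rplp1 and Rplp2, stood at 656, 675 and 720.5 CPM in PA-F1 to PA-F3 and at 878 and 916 CPM in PA-F4 and PA-F5. High-fat males were at 626, 614, 653, 656 (655.6) and 617 CPM, so the lowest female, at 655.9 CPM, exceeded the highest male by less than 1 CPM. Rpsa stood at 390.0, 427 and 442 CPM in PA-F1 to PA-F3, at 524 and 540.0 CPM in PA-F4 and PA-F5, and at 362, 373, 402, 399 and 364 CPM in high-fat males. PA-F1 lay within the range of the males and the other 4 females above it.

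Members with few shared stretches included Rps3, which lines the channel where messenger RNA enters, and Rpl8. Their log2 differences between the sexes were 0.17 (SE 0.08) and 0.12 (SE 0.09) on chow, and 0.24 (SE 0.08) and 0.23 (SE 0.09) on the high-fat diet, and neither passed the test over 19 libraries (adjusted p 0.0530 to 0.591). Without PA-F4 and PA-F5 the differences on the high-fat diet were 0.08 and 0.06 (adjusted p 0.376 and 0.642).

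**Figure D4:**
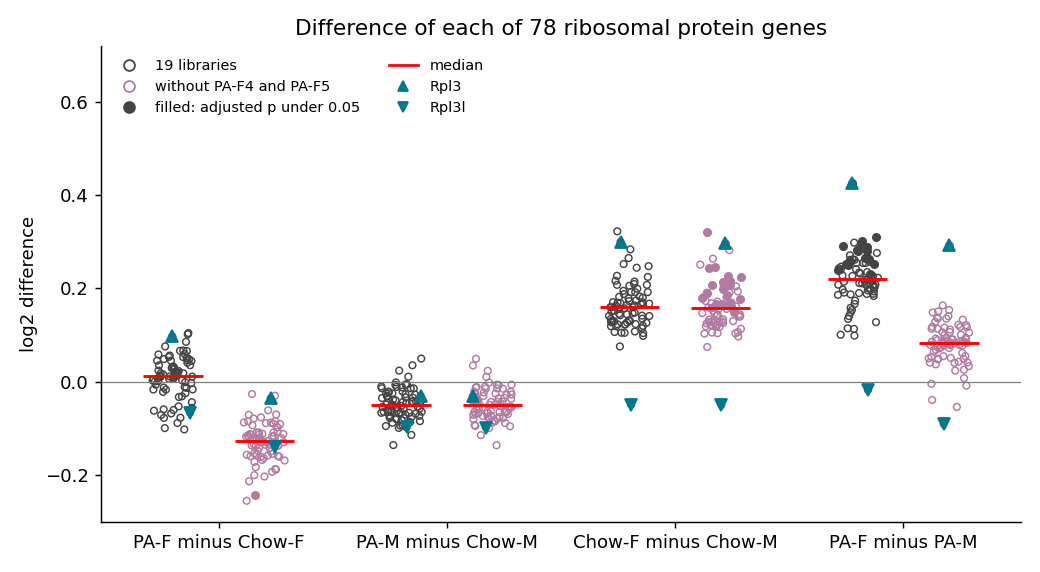
Log2 difference of each of the 78 members in 4 comparisons (horizontal axis), over 19 libraries (grey) and without PA-F4 and PA-F5 (purple). Filled points passed an adjusted p under 0.05, red lines are medians and triangles mark Rpl3 and Rpl3l, and leaving out that pair moves the median from 0.01 to -0.13 for diet in females and from 0.22 to 0.08 for sex on the high-fat diet.

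The second question was the effect of diet. In females no member was called over all libraries, where 2.54% of genes were. None had an unadjusted p under 0.05, against 3390 of all 18051 genes. The median was 0.01, with 51 members higher and 27 lower, and the members with the smallest p were Rpl23 (-0.10, SE 0.06, adjusted p 0.372), Rps19 (0.10), Rps2 (0.10), Rpl3l (-0.07) and Rps12 (0.09). Without PA-F4 and PA-F5 all 78 members were lower on the high-fat diet, by a median of 0.13 on the log2 scale (-0.13). An unadjusted p under 0.05 was found for 28 of them, and for 3828 of all 18279 genes in either direction. Only Rps13 passed the test there (-0.24, SE 0.07, adjusted p 0.0412), that is 1.28% of members against 2.68% of all genes called lower. Rps13, a small subunit protein, stood at 197, 207, 236, 241 and 250 CPM (249.8) in chow females, at 186, 191 and 198 CPM in PA-F1 to PA-F3, and at 244 and 254 CPM in PA-F4 and PA-F5. PA-F1 to PA-F3 lay below 4 of the 5 chow females, and the pair near Chow-F4 and Chow-F5.

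In males no member was called, where 0.765% of all genes were, and DESeq2 called no member either. No member had an unadjusted p under 0.05, against 1537 of all 18051 genes. The median was -0.05, with 74 of 78 members lower on the high-fat diet and only Rpl22, Rps9, Rps19 and Rps24 higher. The smallest p belonged to Rpl3l (-0.10, SE 0.06, adjusted p 0.724), Rpl18 (-0.14, SE 0.09, adjusted p 0.796) and Rpl31 (-0.11, SE 0.08, adjusted p 0.853). For Rpl18 alone each high-fat male lay below each chow male, and only 4 chow males enter. The test of whether diet acted differently in the sexes called no member and 0% of all genes, with 1837 genes but no member at an unadjusted p under 0.05. Its median over members was 0.05, and -0.08 without PA-F4 and PA-F5, so its direction follows that pair. DESeq2 called 58 genes in that test and no member.

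Rpl3l and Rpl3 were then set side by side. Their coding sequences, of 1224 and 1212 bases, matched at 915 of 1232 aligned positions (74.3%), and the longest run they share is 22 bases. Over the first 60 coding bases 13 differ, in capitals here, which shows how reads of the copies can be told apart.
Rpl3l coding bases: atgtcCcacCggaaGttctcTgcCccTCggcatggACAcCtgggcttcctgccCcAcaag
Rpl3 coding bases: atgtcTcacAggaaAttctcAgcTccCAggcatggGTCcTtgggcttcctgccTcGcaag

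Rpl3l lies on chromosome 17 (24727820 to 24736143, plus strand) and Rpl3 on chromosome 15 (80077791 to 80091868, minus strand), in GRCm38. The genes kept 7 coding exons of equal length, 96 to 193 bases, which allow counts to be compared without an assumption on length. Over these exons Rpl3l held 54.2% to 69.1% of the counts of both genes, so its counts exceeded those of Rpl3 in every library. On the level per kb of all annotated exons its share was 68.2% to 80.3%, since annotated Rpl3 includes retained introns. By single exon pair the share over the libraries ran from 47.2% to 71.95%.

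Rpl3 stood at 181, 165, 179.6, 207 and 207 CPM in chow females and at 158, 147, 149.9 and 156 CPM in chow males. All females exceeded all males, and the log2 difference was 0.30 (SE 0.10, adjusted p 0.135; adjusted p 0.0256 without PA-F4 and PA-F5). On the high-fat diet females were at 157, 183, 211, 209.7 and 243 CPM and males at 129.9, 159, 162, 158 and 138 CPM, so PA-F1 lay within the male range. PA-F4 did not exceed PA-F3 here. The call of Rpl3 on the high-fat diet was lost with only those libraries fitted (adjusted p 0.0738) and with a GC correction without PA-F4 and PA-F5 (adjusted p 0.0695), and the adjusted p was 0.00148 to 0.0332 with single libraries left out.

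Rpl3l stood at 283, 282, 299, 273 and 281 CPM in chow females and at 276, 299, 282 and 317 CPM in chow males, with overlapping ranges and a log2 difference of -0.05 (SE 0.06, adjusted p 0.777). On the high-fat diet it was at 270.3, 258, 247, 296 and 284 CPM in females and at 288, 268, 268, 288 and 258 CPM in males (-0.02, SE 0.05, adjusted p 0.846). Without PA-F4 and PA-F5 it was -0.09 (SE 0.05, adjusted p 0.288). Rpl3l was thus the only one of the 78 members whose difference between the sexes was below 0 on both diets over the 19 libraries, though its difference from the other members was not tested.

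The share of Rpl3l over the equal exons was 60.4% ± 2.84 in chow females (SD, n = 5) and 66.04% ± 1.56 in chow males (SD, n = 4). Single libraries of the females ran from 56.9% to 63.04% and those of the males from 64.1% to 67.5%, without overlap. On the high-fat diet the means were 57.9% in females and 64.96% in males, with PA-F1 at 63.7%, PA-F2 at 58.4%, PA-F3 at 54.2%, PA-F4 at 59.0% and PA-F5 at 54.4%. Here PA-F4 and PA-F5 lay within the range of PA-F1 to PA-F3, unlike for the summed share, and PA-F1 lay within the male range of 62.3% to 69.1%. Such shares have no test here.

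**Figure D5:**
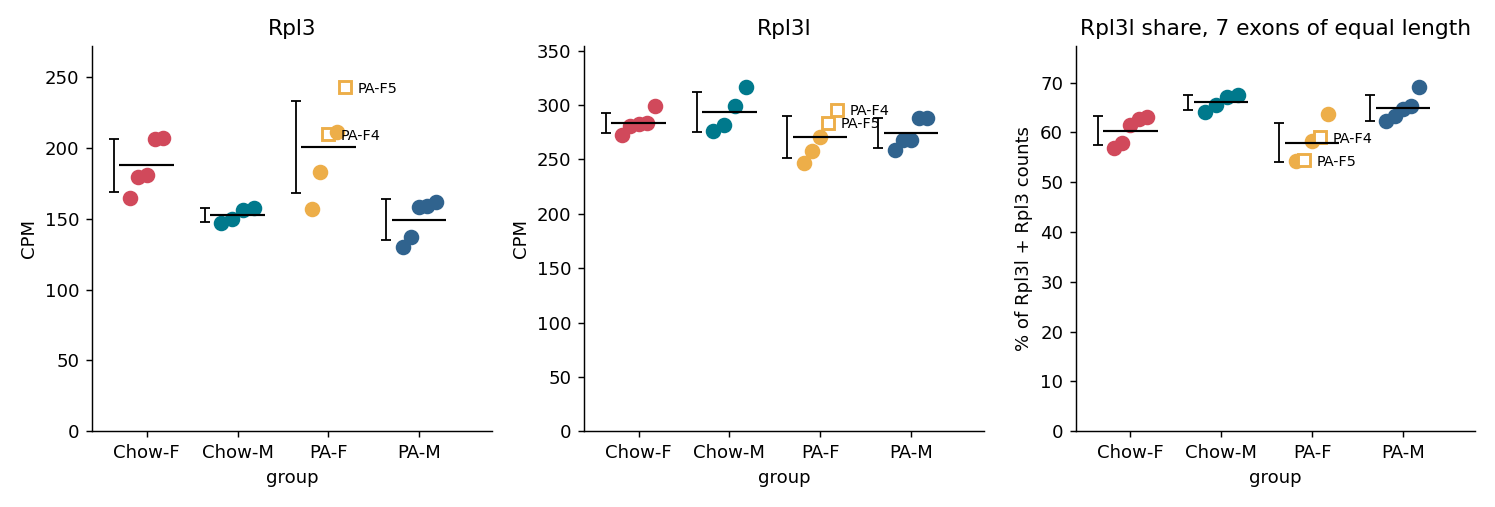
CPM of Rpl3 (left) and Rpl3l (centre), and the percent of Rpl3l in the counts of both over 7 coding exons of equal length (right), by group, with libraries as points, means as lines and SDs as bars; open squares mark PA-F4 and PA-F5. Rpl3 is higher in every female than in every male on chow, and on the high-fat diet PA-F1 lies within the male range. Rpl3l overlaps between all groups, and the share is lower in females on chow (56.9% to 63.04%) than in males (64.1% to 67.5%).

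Other paralogues held smaller shares. Rps27l, a p53 target that resembles Rps27 (76.6% of aligned coding positions), stood at 57.8 to 82.4 CPM, and its share of both copies per kb was 32.3% to 37.7%. That share depends on the exons used: on the exon piece with most counts of each gene it had a mean of 48.5%, against 35.6% over all exons. On the largest piece the mean was 16.1%, with libraries from 0% to 47.9%. Rpl22l1 held a mean of 17.3% of the level of both copies beside Rpl22, a protein dispensable for translation in general, but 13.4% on the piece with most counts and 1.46% on the largest piece. Rpl36al held 34.5% beside Rpl36a, but 12.3% on the piece with most counts and 43.0% on the largest. Rpl39l, which had few counts, reached at most 0.490% over all exons, but had a mean of 45.5% on the largest piece.

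Genes of the translation apparatus outside the pattern were taken from lists fixed by name. Ribosomal proteins named differently and close relatives (8 of 8 tested) had no called gene in any comparison, with medians of 0.12 for sex on chow and 0.16 on the high-fat diet. The latter was 0.0092 without PA-F4 and PA-F5. Fau, the precursor of the small subunit protein eS30, differed between the sexes by 0.22 on chow (SE 0.09, adjusted p 0.226) and by 0.25 on the high-fat diet (SE 0.09, adjusted p 0.0696; 0.12 and adjusted p 0.368 without that pair). Rack1, a scaffold on the small subunit, differed by 0.13 and 0.24 (adjusted p 0.467 and 0.0552), the latter 0.10 without the pair (adjusted p 0.351). Rps3a1, added after its absence from the pattern was seen, differed by 0.16 and 0.18, the latter 0.08 without the pair.

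Of 34 translation factors, 4 were called higher in high-fat females and 1 in chow females, with medians of 0.11 and 0.05. Without PA-F4 and PA-F5, 1 was called higher and 3 lower in high-fat females, with a median of -0.01. In that fit 2 were called higher and 2 lower in chow females, where 868 of 18279 genes were called higher and 1042 lower. The elongation factor Eef1a1, which delivers aminoacyl-tRNA, was at 953 ± 57.4 CPM (SD, n = 5) in chow females and 843 ± 38.5 (SD, n = 4) in chow males. In high-fat females it was at 1053 ± 121 (SD, n = 5) and in high-fat males at 857 ± 39.6 (SD, n = 5), a log2 difference of 0.30 (SE 0.07, adjusted p 0.0118; 0.19 and adjusted p 0.0518 without PA-F4 and PA-F5). Eef2, the translocation factor, was called on the high-fat diet (0.24, SE 0.07, adjusted p 0.0471) but not without that pair (0.08, adjusted p 0.316). Eef1a2, the form of adult muscle, differed by -0.04 on chow and by 0.11 on the high-fat diet (-0.07 without the pair), and was not called. The X-linked initiation factor Eif2s3x, which escapes X inactivation, was called on both diets (0.71 and 0.64, the latter 0.70 without the pair).

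Among 46 ribosome biogenesis factors, 6 were called higher and 4 lower in high-fat females and none on chow, with a median of 0.07 on the high-fat diet. Without PA-F4 and PA-F5, 1 was called higher and 4 lower in high-fat females, with a median of -0.03. In that fit 3 were called higher and 1 lower in chow females. Fibrillarin (Fbl), which methylates ribosomal RNA, was higher in high-fat females (0.31, SE 0.04, adjusted p 3.90e-04; 0.25 without PA-F4 and PA-F5), and Nmd3, the export adaptor of the large subunit, was lower (-0.47, SE 0.09, adjusted p 0.0027; -0.35). Of 19 regulators of ribosomal protein translation, Tsc1, an inhibitor of mTOR signalling, was called lower in chow females (-0.28, SE 0.06, adjusted p 0.0141). Without the pair, 5 of the regulators were called lower and 1 higher in chow females. Eif4ebp1, which binds eIF4E when mTOR is inactive, was called higher in high-fat females (0.30, SE 0.09, adjusted p 0.0354; adjusted p 0.204 without the pair). Of 13 non-coding hosts of small nucleolar RNAs, many of which also begin with a pyrimidine tract, 1 was called, Snhg15, in chow females (0.70, SE 0.17, adjusted p 0.0246). Without the pair, 2 of the hosts were called higher in chow females. Gas5 differed by 0.18 on chow and by -0.08 on the high-fat diet (0.11 without the pair), and PA-F4 and PA-F5 had its lowest levels, 74.1 and 60.3 CPM.

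Markers of cell types were read beside these differences. Cardiomyocyte markers were present at high level, with a summed CPM of 86993 to 94242 in chow females and 88479 to 95498 in chow males. On the high-fat diet the sum was 77941 to 92978 in females and 79874 to 85638 in males. Within these females it was 77941 to 85415 in PA-F1 to PA-F3 and 90705 to 92978 in PA-F4 and PA-F5. None of 7 was called between the sexes. Of the fibroblast markers, 5 of 7 were called higher in females on the high-fat diet, with or without PA-F4 and PA-F5. Their summed CPM was 1470 to 1788 in high-fat females against 1227 to 1357 in high-fat males. Within the females it was 1516 to 1788 in PA-F1 to PA-F3 and 1470 to 1630 in PA-F4 and PA-F5. On chow 2 of 7 were called higher in females, and the ranges of 1193 to 1340 and 1166 to 1250 CPM overlapped. Macrophage markers were called higher in high-fat females for 2 of 7, with sums of 112 to 139 and 110.3 to 132 CPM. Endothelial markers had 1 of 7 called lower in females on each diet (none on the high-fat diet without that pair), at sums of 845 to 1076 CPM over all groups, and erythroid markers none of 5 on either diet. Lymphocyte and adipocyte markers summed to under 3 CPM in each library. The skeletal myosins Myh1, Myh2 and Myh4 and the atrial gene Sln had no count in many libraries (9 to 18 of 19). Other skeletal muscle and atrial markers were expressed, such as Ckm at 1342 to 1866 CPM and Nppa at 36.9 to 151 CPM. Of 4 skeletal muscle markers tested, 1 was called lower in females on each diet, with or without PA-F4 and PA-F5. Acta1 had means of 75.5 and 154 CPM in chow females and males, and of 88.1 and 172 CPM on the high-fat diet. None of 3 atrial markers was called between the sexes. The part of other cell types in the members' differences was not tested.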

How the data were processed

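Hearts gave 20 libraries. The deposited values are whole-number counts per exon piece in 19 of them and per gene in Chow-M4. Tools named in the notes of the submitters on processing are Salmon (1.5.1) and DESeq2 (1.32.0), with the build GRCm39, but the counts are not transcript estimates and the coordinates match GRCm38 (90.9% of 46811 genes at the same chromosome, start and end in GENCODE vM21); how the authors aligned and counted reads is not given in the sources used here. A read that spans several pieces counts in each, so totals, 57805110 to 85794067 per library, overstate reads, and intervals of counting error were not used. Pieces were summed per gene ID; 5339 of 425461 pieces shared by several genes were not used (1.17% to 1.30% of counts). No source states counting by strand.

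Differences were tested with edgeR 4.0.16 (quasi-likelihood F-test, TMM, filterByExpr, 1 model over 4 groups, 15 residual degrees of freedom) on 18051 genes, with Benjamini-Hochberg adjustment over all of them, and called at an adjusted p under 0.05. The design had assumed 20 libraries. SE is that of the log2 difference. Log2 CPM used a prior count of 2. The scripts were tested on simulated counts. Named members are those with the smallest p per comparison (up to 10 called per direction, or 5 where fewer than 5 were called), a fixed set of paralogues, stalk and X-linked members, and the 3 highest and lowest per kb; other called members, Rps3, Rpl8, Rps13, Rps3a1 and members set out for their spread or overlap were chosen after their values were seen. Some members and listed genes are not reported here by name. The members and lists were chosen with earlier results of these data known. Alternatives were DESeq2 1.42.0, its size factors, no filter, a stricter filter, only the groups compared, a replicate block, GC and length offsets, the largest exon piece, pseudogene counts added, and libraries left out; the exon piece with the most counts, shared pieces given to the member, exons of equal length and the GC offset without PA-F4 and PA-F5 were chosen after seeing the data.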

Additional observations from a re-analysis of the deposited data

Results flagged for a closer look

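In a search of 144 sets of values (a group's libraries for a named member, a share or the pseudogene counts) for a library far from the others of its group, 7 were set apart, where chance gives about 1 in 20, or 7.2. Counts at named pseudogenes were 0.397% of the members' counts in Chow-F4, against 0.0813% to 0.0889% in the other chow females, and 109 of the 225 pseudogene loci with any count were highest in that library. In PA-F1 they were 0.0954%, against 0.0882% to 0.0887% in the other high-fat females. Chow-M5 stood above the other chow males for 4 members: Rpl18 at 378.6 CPM against 347 to 349, Rpl36a at 110.1 against 99.2 to 101, Rplp1 at 244 against 210.4 to 213, and Rps14 at 375.3 against 341 to 344. Rpl36a in Chow-F1 was low, at 105.7 CPM against 122 to 126. No member was called in the test of diet by sex.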

How the results depend on the processing

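The 17 members called for sex on the high-fat diet became 9 with median-ratio size factors, 2 with no filter, 28 with the stricter filter (1 CPM in 5 libraries), 0 with only the groups compared, 1 without PA-F4 and PA-F5, 6 with a GC offset, 0 with both of these, 3 of 67 with the largest exon piece and 32 with the exon piece of most counts; DESeq2 called 18. Leaving out 1 library gave 1 to 56: 56 without PA-F1, 38 without PA-F2, 8 without PA-F3 or Chow-M1, 1 without PA-F4, PA-F5, PA-M1 or PA-M5, 2 without PA-M2, 5 without PA-M3, 10 without Chow-M2, Chow-M3 or Chow-M5, and 11 without Chow-F2 or Chow-F3. Among all genes, 989 of 18051 were called higher in females with median-ratio size factors. No filter gave 654 of 33090 and the stricter filter 1234 of 13805. Only the groups compared gave 356 of 16960, the pair left out 878 of 18279 and the GC offset 646 of 18051. The pair left out with the GC offset gave 690 of 18279. The largest exon piece gave 574 of 14368, that of most counts 912 of 16452 and DESeq2 1262 of 18051. Leaving out 1 library gave 666 (PA-F4) to 1964 (PA-F1). The median of 0.22 became 0.084 without PA-F4 and PA-F5 and 0.073 with the GC offset too. For sex on chow, where none was called, 6 were called with only the groups compared, 20 without PA-F4 and PA-F5 and 21 with the GC offset too. In that order, 676 of 17354, 868 of 18279 and 957 of 18279 genes were called higher in females. For diet in females the pair left out gave 1 called and a median of -0.13, and 2 and -0.13 with the GC offset; for the interaction it gave -0.080 and -0.087. For diet in females, 490 of 18279 genes were called lower without the pair and 655 with the GC offset too. The cause of these changes was not tested. In every setting run, the members called between the sexes were higher in females.

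The replicate block gave 44 members called for sex on the high-fat diet, with 1145 of 18051 genes called higher in females. Same-numbered libraries correlated by -0.067 to 0.161 (median 0.025) over 27 pairs. Libraries with different numbers correlated by -0.166 to 0.124 (median -0.005) over 108 pairs. Of 19 libraries, 6 correlated best with one of their own number. The labels do not say what the numbers mark, so they were not taken as pairs.

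On the largest exon piece the summed share became 0.506% (Chow-F), 0.560% (PA-F), 0.444% (Chow-M) and 0.397% (PA-M). With shared pieces given to the member it was 1.935% (Chow-M) and 1.87% (PA-M). The female shares under that setting are not reported here, so these values do not show how it changes the difference between the sexes. The share of Rpl3l, 73.6%, 71.4%, 77.95% and 77.2% per kb for Chow-F, PA-F, Chow-M and PA-M in that order, was 58.99%, 55.75%, 64.1% and 62.6% on the piece with the most counts, 96.1%, 95.9%, 95.5% and 97.7% on the largest piece, and 60.4%, 57.9%, 66.04% and 64.96% on exons of equal length.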

Other observations

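Chow-M4, the library deposited per gene, had 79 of the 80 members with a count, which together made up 1.35% of its counts; this share cannot be set beside those of the other libraries, where a read spanning several pieces counts more than once. Within it, Rpl3l had 8296 counts and Rpl3 3738, or 80.8% for Rpl3l per kb of exon, and Rps27l had 41.1% of the level of Rps27l and Rps27 per kb.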
